A study of Cavia porcellus with 10 samples.

Results

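The genes described here make cholesterol and fatty acids: 17 enzymes of the sterol pathway, 5 genes of the SREBP system that switches the pathway on, 10 genes that build, elongate or desaturate fatty acids, and 3 ligases that join fatty acids to coenzyme A. The list of 35 was set by gene function. A member was taken from the deposited count table by its symbol, ignoring case, and where a symbol stood on several lines the line with the highest mean count was used, which applied to INSIG2. In this way 34 of the 35 were found among 17642 lines with a symbol, all 34 passed the filter on low counts, and SCD was not analysed here. Gene symbols are written in capitals throughout.

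The data are RNA-seq read counts of scleral tissue, the tough outer coat of the eyeball, in male guinea pigs (Cavia porcellus) aged 2 to 3 weeks. The myopia group had lenses placed over both eyes to make them nearsighted, and the control group went without treatment. There were 5 libraries per group, with 1 eye in each. The sources used here do not give strain, lens power, duration of wear or which eyes came from 1 animal. The p-values therefore reflect only the variation among these libraries, part of which may be technical. Total counts per library lay between 32309258 and 35430797. Values are CPM, counts divided by library size, scaled by TMM factors, which correct each library for its RNA composition, and differences were tested with edgeR's quasi-likelihood test over all genes. A gene passed when its p-value, adjusted by the Benjamini-Hochberg method over 14683 genes, was under 0.05. A level in CPM is not divided by gene length, so levels are compared between libraries and not between genes.

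Cholesterol is built from acetyl-CoA through mevalonate, isoprenoid units, squalene and lanosterol. The pathway is governed by the SREBP transcription factors: when membrane sterol is low the escort protein SCAP carries them from the endoplasmic reticulum to the Golgi, where they are cut and released, and when sterol is plentiful the INSIG proteins hold SCAP back. SREBP2 acts mainly on sterol genes and SREBP1 mainly on fatty acid genes. Fibroblasts, the main cells of the sclera, run this pathway at a modest rate, while fat cells, gland cells and the cells that wrap axons in myelin run it strongly.

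In the myopic sclera the pathway did not move as a unit. Of the 34 genes 10 rose, 18 fell and 6 did not pass. The rises were led by HSD17B7, INSIG2, ACSL4 and IDI1, and the falls by MVK, MVD, FDPS and SCAP. Over all genes tested 71.9% passed, 36.9% as higher and 35.1% as lower, so 28 calls among 34 genes (82.4%) stand against a background in which most genes were called. The median log2 fold change was -0.28 for these genes and 0.03 for all genes tested. Their median absolute log2 fold change was 0.65, against 0.71 for all genes. The groups did not overlap for 22 of the 34 (57.8% of all genes), with myopia higher for 7 (29.8% of all genes) and lower for 15 (28% of all genes).

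The direction of many small changes rests on the scaling. With libraries scaled by total count alone, the median of all genes moved up by 0.45 on the log2 scale and 73.5% of all calls were higher in place of 51.2%. Among the lipid synthesis genes 14 were then higher and 7 lower, with a median of 0.17 against 0.47 for all genes. The words rose and fell below are therefore relative to the TMM scale. Across 22 alternative settings, 8 genes rose in every setting (ACACA, ACSL1, ACSL3, ACSL4, HSD17B7, IDI1, INSIG2 and SC5D) and 7 fell in every setting (EBP, FADS1, FDFT1, FDPS, MVD, MVK and SCAP).

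**Figure D1:**
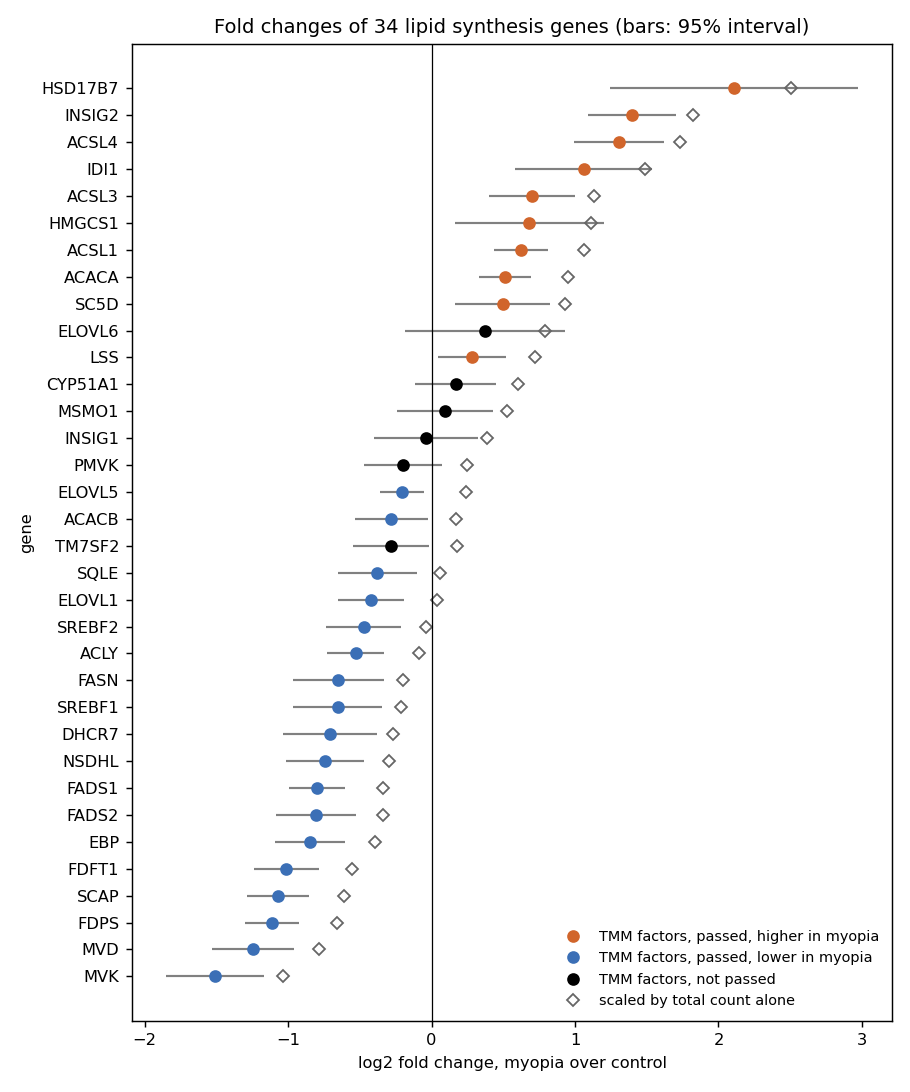
Log2 fold change of myopia over control (horizontal axis) for each of the 34 genes (vertical axis), with filled circles for TMM scaling, grey bars for the 95% interval and open diamonds for scaling by total count alone. HSD17B7 lies at the top at 2.11 and MVK at the bottom at -1.51, and every diamond lies to the right of its circle.

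Single libraries bear on these values. Control libraries 4 and 5 lay nearest to the myopia libraries on the main axis of the whole data set (scores of -49.7 and -24.6, against -94.6 to -81.5 for control libraries 1 to 3 and 61.5 to 72.5 in myopia). Among the lipid synthesis genes, control libraries 4 and 5 both stood above the other 3 controls for 18 of 34 (52.9%) and both below for 9 (26.5%), against 26.6% and 26.9% of all genes. Myopia library 2 was the lowest of the 5 myopia libraries for 24 of the 34 (70.6%), against 20.4% of all genes tested. Without control libraries 4 and 5, 12 of the 34 genes rose and 18 fell; without myopia library 2, 10 rose and 18 fell.

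The sample is a whole tissue, so fewer cells of a type and less RNA per cell cannot be told apart. Of 6 fibroblast markers 2 rose and 2 fell, and their summed level, mostly collagen, was 120300 to 150600 CPM in control and 67350 to 92810 CPM in myopia, so collagen-producing tissue was measured in every library and its marker sum was lower in myopia. Of 6 fat cell markers tested 3 fell and 0 rose; the list summed to 78.5 to 254 CPM in control and 80.0 to 204 CPM in myopia, overlapping ranges, with leptin (LEP) at 0 in every library. Of 7 macrophage markers 4 fell and 1 rose, with sums of 330.5 to 407 CPM in control and 176 to 263 CPM in myopia. Red blood cell markers fell in 4 of 4 cases, from 2504 to 10560 CPM down to 100.1 to 456 CPM. Of 3 epithelial and gland markers tested, 1 rose and 1 fell, at summed levels of 33.0 to 59.1 and 24.97 to 46.4 CPM. Skeletal muscle markers summed to 2093 to 5941 CPM in control and 1408 to 3293 CPM in myopia, and photoreceptor markers to 180 to 328 and 37.5 to 196 CPM. Of 5 melanocyte markers 3 fell and 1 rose, with sums of 127 to 409 CPM in control and 31.8 to 191 CPM in myopia. Of 5 endothelial markers 2 rose (KDR by 1.02 ± 0.18 and TEK by 1.25 ± 0.22 on the log2 scale) and 1 fell, with sums of 852 to 1049 and 677 to 1043 CPM. Of 4 pigment epithelium markers 2 rose, with sums of 13.1 to 25.1 and 15.6 to 32.6 CPM. The part of these cells in the lipid synthesis values was not tested.

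The mevalonate and squalene steps comprised 8 genes, of which 5 fell and 2 rose, PMVK being the other. Their median log2 fold change was -0.69 (-0.25 with total count scaling, where 4 fell and 2 rose). HMGCS1 condenses acetyl units at the entry to the pathway. In control libraries 1 to 5, in that order here and below, it stood at 56.5, 92.8, 97.4, 116 and 151 CPM, and in myopia libraries 1 to 5 at 169, 102, 166, 217 and 171 CPM. Control 1 was the lowest of all 10 libraries, and myopia 2 lay inside the control range. The rise of HMGCS1 was 0.68 ± 0.24 (log2 fold change ± SE, as below; adjusted p = 0.0219), a call that ended without myopia library 4 (0.56, adjusted p = 0.0551, where the 22 alternatives ran from 0.00153 to 0.0551).

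MVK, mevalonate kinase, gave the strongest fall of the 34 genes. It stood at 42.9, 42.4, 43.3, 33.99 and 22.7 CPM in control and at 13.2, 11.6, 13.8, 13.3 and 13.3 CPM in myopia. The groups did not overlap, and control library 5 lay closest to the myopia eyes. Its log2 fold change was -1.51 ± 0.16 (adjusted p = 2.54e-06), a 2.84-fold lower level. PMVK, the kinase of the following step, went from 22.5 ± 2.52 to 19.6 ± 3.07 CPM (mean ± SD, n = 5 per group), with a 95% interval of -0.47 to 0.07 on the log2 scale (adjusted p = 0.174). MVD, which removes carbon dioxide to form the 5-carbon isoprenoid unit, stood at 46.4, 49.4, 43.5, 48.1 and 40.8 CPM in control and at 20.8, 12.99, 19.1, 22.7 and 20.5 CPM in myopia. Its fall of 1.25 ± 0.13 on the log2 scale (adjusted p = 2.73e-06) left no overlap between the groups.

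IDI1, the isomerase that makes the reactive form of that unit, went the other way. Its control libraries stood at 9.39, 12.9, 14.2, 21.7 and 22.2 CPM, and its myopia libraries at 33.5, 23.5, 35.2, 36.6 and 39.0 CPM. The groups came closest between controls 4 and 5 and myopia 2, without overlap. IDI1 rose by 1.06 ± 0.22 on the log2 scale (adjusted p = 0.000789). FDPS, which joins the units into farnesyl diphosphate directly after IDI1, fell from 109 ± 7.93 to 50.7 ± 4.596 CPM. All 5 of its myopia libraries (46.4 to 57.7 CPM) lay below all controls (100.1 to 119.9 CPM), and its log2 fold change of -1.11 ± 0.09 had an adjusted p of 4.1e-07.

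FDFT1 commits farnesyl diphosphate to squalene. It fell from between 121 and 152 CPM in control to between 55.7 and 76.8 CPM in myopia. Its log2 fold change was -1.01 ± 0.10 (adjusted p = 2.21e-06). SQLE, squalene epoxidase and a rate-limiting step, stood at 41.1, 41.7, 50.6, 60.1 and 57.7 CPM in control and at 36.6, 31.5, 38.6, 43.7 and 43.0 CPM in myopia. The groups overlapped, because control libraries 1 and 2 were as low as the higher myopia libraries. Its fall was 0.38 ± 0.13 on the log2 scale (adjusted p = 0.0177). The fall did not pass with upper quartile factors (-0.31, adjusted p = 0.0649) or without control 4 (-0.29, adjusted p = 0.0667). Nor did it pass without control libraries 4 and 5 together (-0.19, adjusted p = 0.17). With total count scaling the value turned to 0.062, and adjusted p ran from 0.00585 to 0.758 over the alternatives.

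**Figure D2:**
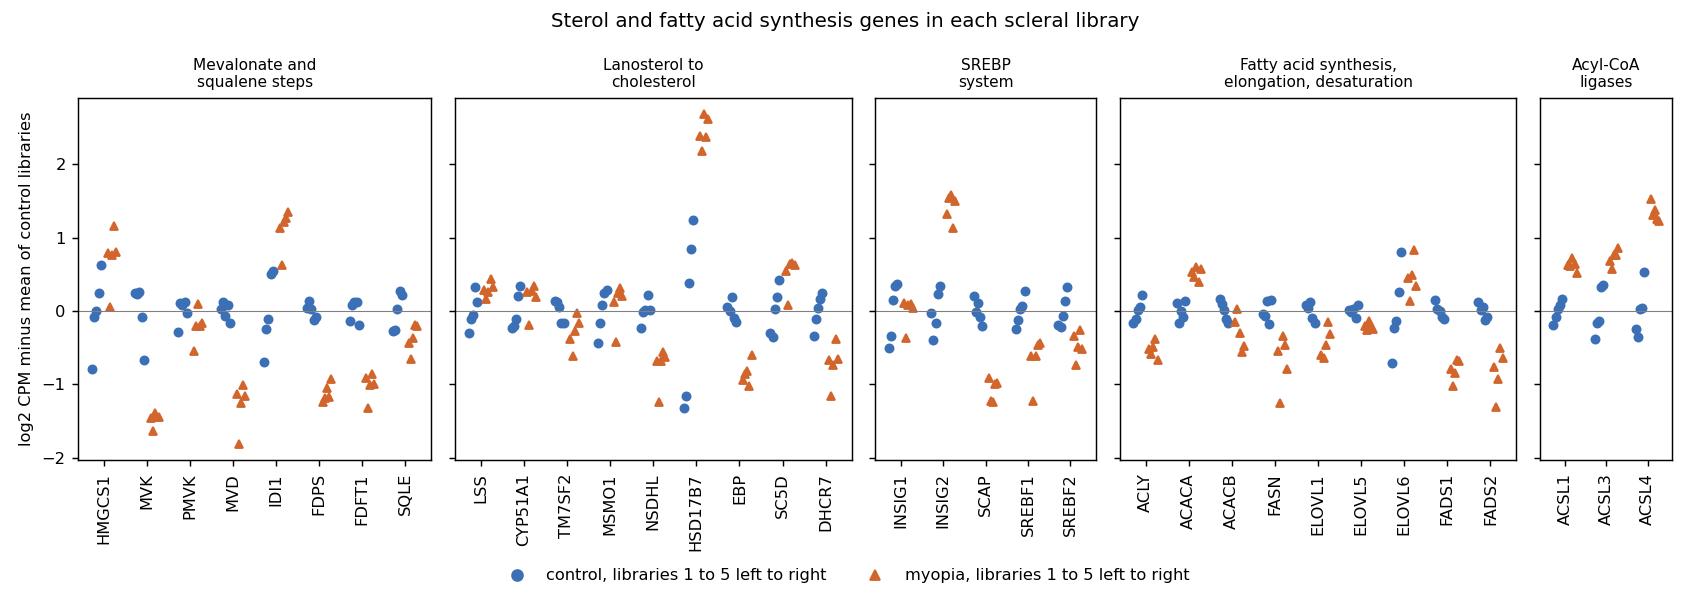
Log2 CPM of each of the 34 genes in each library, minus the mean log2 CPM of the control libraries (vertical axis), by gene and pathway step (horizontal axis); circles are control and triangles myopia libraries 1 to 5 from left to right. HSD17B7, INSIG2 and ACSL4 lie above their controls, MVK, MVD and SCAP below, and myopia library 2 is the lowest triangle for 24 genes.

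From lanosterol to cholesterol, 3 of 9 genes rose, 3 fell and 3 did not pass. The median log2 fold change was 0.09 (5 rose and 1 fell with total count scaling, median 0.53). HSD17B7, a ketoreductase of sterol demethylation, gave the strongest rise of all 34 genes, at a low level. It stood at 0.631, 0.705, 2.05, 2.82 and 3.69 CPM in control, from counts of 16, 20, 60, 86 and 115, and at 8.21, 7.10, 10.03, 8.11 and 9.59 CPM in myopia, from up to 391 counts. The lowest myopia library was above the highest control, and the controls themselves spanned a 5.85-fold range. HSD17B7 rose by 2.11 ± 0.40 on the log2 scale (adjusted p = 0.000381), with a 95% interval of 1.24 to 2.97.

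SC5D, which places a double bond in the sterol ring, stood at 36.6, 35.4, 46.2, 51.7 and 60.7 CPM in control and at 66.0, 48.0, 70.1, 71.2 and 69.7 CPM in myopia. Only myopia 2 fell within the control range. SC5D rose by 0.50 ± 0.15 on the log2 scale (adjusted p = 0.0108). LSS, the cyclase that forms lanosterol, rose from a mean of 60.1 ± 9.92 to one of 73.1 ± 5.07 CPM, by 0.28 ± 0.11 on the log2 scale (adjusted p = 0.0329). The call was lost when any of control 1, 2 or 3 or myopia 1, 4 or 5 was left out, with log2 fold changes of 0.23, 0.27, 0.28, 0.29, 0.25 and 0.28 and an adjusted p between 0.000429 and 0.0787 over all alternatives.

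The falls on this stretch were in EBP, NSDHL and DHCR7. EBP, a sterol isomerase, stood at 21.9, 21.0, 24.1, 19.7 and 19.1 CPM in control and at 10.97, 11.6, 12.0, 10.4 and 13.9 CPM in myopia. Both groups were narrow and did not overlap; the log2 fold change was -0.85 ± 0.11 (adjusted p = 1.74e-05). NSDHL, a dehydrogenase of the demethylation complex, averaged 68.4 ± 7.46 CPM in control and 40.9 ± 6.88 CPM in myopia, a fall of 0.74 ± 0.13 on the log2 scale (adjusted p = 0.000129). DHCR7, which reduces 7-dehydrocholesterol to cholesterol at the end of the route, stood at 15.3, 17.9, 20.1, 21.8 and 23.0 CPM in control and at 12.3, 8.74, 11.7, 14.9 and 12.4 CPM in myopia. Its control libraries 4 and 5 were the farthest from the myopia eyes, the reverse of HSD17B7, and its log2 fold change was -0.71 ± 0.15 (adjusted p = 0.000847). With total count scaling the values were -0.29 for NSDHL (adjusted p = 0.112, range 5.91e-08 to 0.112) and -0.27 for DHCR7 (adjusted p = 0.233, range 1.11e-05 to 0.233), which did not pass.

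CYP51A1, TM7SF2 and MSMO1, which remove methyl groups from lanosterol or reduce its intermediates, did not pass. CYP51A1 had a 95% interval of -0.12 to 0.45 (adjusted p = 0.265) and MSMO1 of -0.24 to 0.43 (adjusted p = 0.612), each spanning less than a doubling in either direction. CYP51A1 passed without control libraries 4 and 5 (0.38, adjusted p = 0.00781), with total count scaling (0.60, adjusted p = 0.00827) and with voom quality weights (0.28, adjusted p = 0.0338), where the alternatives ran up to 0.44. MSMO1 passed with total count scaling only (0.53, adjusted p = 0.0317, where the highest was 0.961). TM7SF2 was close to the threshold at -0.28 ± 0.12 (adjusted p = 0.053). It passed in 6 of the 22 alternatives and became 0.18 with total count scaling, with adjusted p from 0.0133 to 0.239.

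Of the 5 genes of the SREBP system 3 fell, 1 rose and 1 did not pass; with total count scaling 1 fell and 1 rose. SREBF2, which encodes SREBP2, stood at 117, 116, 128, 148 and 169 CPM in control and at 107, 81.0, 95.4, 112 and 94.1 CPM in myopia. The gap between the groups was small, and control libraries 4 and 5 were the highest. SREBF2 fell by 0.47 ± 0.12 on the log2 scale (adjusted p = 0.0033). SREBF1, which encodes SREBP1, fell from 39.7 ± 5.42 to 25.2 ± 4.93 CPM, by 0.65 ± 0.14 on the log2 scale (adjusted p = 0.00108). With total count scaling neither passed, at -0.04 for SREBF2 (adjusted p = 0.854, range 0.000253 to 0.854) and -0.21 for SREBF1 (adjusted p = 0.319, range 2.67e-05 to 0.319).

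SCAP, the escort, fell in every setting. It stood at 121, 104, 113, 99.4 and 91.1 CPM in control and at 55.8, 45.3, 44.6, 52.7 and 53.3 CPM in myopia, so that the highest myopia library lay far below the lowest control. The log2 fold change was -1.07 ± 0.10 (adjusted p = 1.15e-06). The retention genes parted. INSIG2 stood at 15.5, 12.1, 14.2, 18.7 and 20.2 CPM in control and at 39.8, 45.9, 47.3, 34.6 and 44.8 CPM in myopia, with no overlap, and rose by 1.40 ± 0.14 on the log2 scale (adjusted p = 2.02e-06). INSIG1, itself a strong SREBP target, stood at 17.8, 19.9, 28.1, 32.2 and 32.6 CPM in control and at 27.3, 19.7, 26.7, 27.0 and 26.2 CPM in myopia. Of the myopia libraries 4 sat in the middle of a wide control range and library 2 near its bottom; the log2 fold change was -0.04, with a 95% interval of -0.40 to 0.32 (adjusted p = 0.836).

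Count ratios of gene pairs within a library need no scaling factor, and they were compared between the groups for 8 pairs with an exact two-sided permutation test. With 5 libraries a group the smallest p that this test can give is 0.00794, or 0.0159 after adjustment for the number of pairs reaching it here. The log2 ratio of INSIG1 to INSIG2 was 0.68 ± 0.29 in control and -0.74 ± 0.33 in myopia (mean ± SD, n = 5), a difference of -1.42 ± 0.20 (SE; exact permutation p = 0.00794, adjusted p = 0.0159). Every control library had a ratio above 0 and every myopia library a ratio below 0. The log2 ratio of SCAP to INSIG1 fell by 1.06 ± 0.25 (exact permutation, adjusted p = 0.0159), although its controls were spread from 1.48 to 2.76 against 0.74 to 1.2 in myopia. That of SREBF1 to SREBF2 differed by -0.20 ± 0.10 and did not pass (exact permutation, adjusted p = 0.106).

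**Figure D3:**
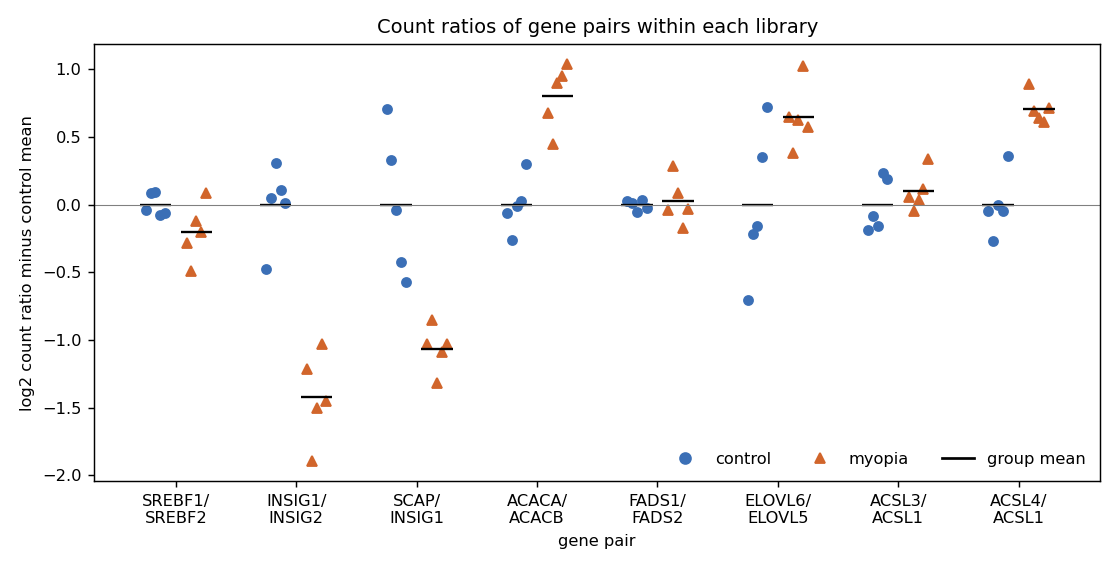
Log2 count ratio of each of 8 gene pairs (horizontal axis) in each library, minus the mean of the control libraries (vertical axis); circles are control, triangles myopia, and black lines group means. The groups do not overlap for INSIG1/INSIG2, SCAP/INSIG1, ACACA/ACACB and ACSL4/ACSL1, and they overlap for the other 4 pairs.

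Of the 9 measured genes of fatty acid synthesis, elongation and desaturation 7 fell, 1 rose and 1 did not pass. Their median log2 fold change was -0.42. With total count scaling 3 rose and 1 fell and the median was 0.04, so the count of falls depends on the scaling. ACLY, which makes cytosolic acetyl-CoA from citrate, fell from between 126.4 and 165 CPM in control to between 89.1 and 109.5 CPM in myopia, by 0.53 ± 0.09 on the log2 scale (adjusted p = 0.000167). FASN, fatty acid synthase, stood at 265, 260.1, 299.5, 240.1 and 304 CPM in control and at 187, 115, 216, 198 and 157 CPM in myopia. The groups did not overlap, and myopia 2 was again the lowest; the log2 fold change was -0.65 ± 0.15 (adjusted p = 0.00143). With total count scaling ACLY was at -0.09 (adjusted p = 0.547, range 2e-08 to 0.547) and FASN at -0.20 (adjusted p = 0.318, range 3.01e-05 to 0.318).

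The acetyl-CoA carboxylases, which make malonyl-CoA, parted. ACACA, the cytosolic form that feeds fatty acid synthesis, stood at 44.7, 37.2, 41.6, 39.2 and 45.7 CPM in control and at 60.1, 57.6, 62.9, 54.8 and 61.5 CPM in myopia. Its groups were tight and separate, and control libraries 4 and 5 did not lean towards the myopia eyes. ACACA rose by 0.51 ± 0.08 on the log2 scale (adjusted p = 0.000103), in every setting. ACACB, the mitochondrial form whose product restrains fatty acid oxidation, went from 34.98 ± 3.34 to 28.8 ± 4.75 CPM, with overlapping groups, at -0.28 ± 0.12 on the log2 scale (adjusted p = 0.0462). This fall did not hold in 10 of the 22 alternatives, among them those without control 1 (-0.23), control 2 (-0.25), control 3 (-0.27), control 4 (-0.30), myopia 3 (-0.27), myopia 4 (-0.22) or myopia 5 (-0.23), and the value turned to 0.17 with total count scaling; adjusted p ran from 0.0103 to 0.131. The log2 ratio of ACACA to ACACB rose from 0.25 ± 0.20 to 1.06 ± 0.24, a difference of 0.80 ± 0.14 (exact permutation, adjusted p = 0.0159).

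The fatty acid desaturases FADS1 and FADS2, which introduce double bonds into polyunsaturated chains, fell side by side. FADS1 stood at 227, 208, 205, 193 and 190.4 CPM in control and at 118, 101, 114, 128 and 128 CPM in myopia. FADS2 stood at 164, 153, 157, 139 and 143 CPM in control and at 89.5, 61.1, 79.3, 107 and 96.6 CPM in myopia. For both, the lowest control was well above the highest myopia library. The log2 fold changes were -0.80 ± 0.09 for FADS1 (adjusted p = 4.58e-06) and -0.80 ± 0.13 for FADS2 (adjusted p = 8.34e-05). Their log2 ratio differed between the groups by 0.025 ± 0.078 (exact permutation, adjusted p = 0.77). FADS2 narrowly missed with total count scaling (-0.34, adjusted p = 0.0516, where the lowest over the alternatives was 1.15e-08).

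Of the 3 elongases among the 34 genes, 2 fell and 1 did not pass. ELOVL1, which extends saturated very long chains, averaged 52.5 ± 4.41 CPM in control and 39.1 ± 5.68 CPM in myopia, a fall of 0.42 ± 0.11 on the log2 scale (adjusted p = 0.00281), with overlap through myopia library 4. ELOVL5, an elongase of polyunsaturated chains, stood between 125 and 140.5 CPM in control and between 112 and 121 CPM in myopia, a fall of 0.21 ± 0.07 on the log2 scale (adjusted p = 0.0183). With total count scaling both values turned positive, to 0.038 for ELOVL1 and 0.24 for ELOVL5. ELOVL5 then passed as higher (adjusted p = 0.0254, range 0.000598 to 0.102). It missed the threshold with upper quartile factors (-0.14, adjusted p = 0.102) and with the replicate block (adjusted p = 0.0595). ELOVL6, which extends palmitate, stood at 2.09, 2.89, 3.11, 4.07 and 5.94 CPM in control and at 4.65, 3.72, 4.80, 6.03 and 4.29 CPM in myopia. Control 5 was as high as any myopia library but one, and the log2 fold change of 0.37 ± 0.26 did not pass (adjusted p = 0.209). It passed in 4 alternatives: without control 5 (0.64, adjusted p = 0.0223), without controls 4 and 5 (0.81, adjusted p = 0.00702), with total count scaling (0.79, adjusted p = 0.0349) and with voom quality weights (0.61, adjusted p = 0.0189), within a range of 0.00702 to 0.401. The log2 ratio of ELOVL6 to ELOVL5 differed by 0.65 ± 0.27 (exact permutation, adjusted p = 0.102).

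The acyl-CoA ligases, which activate fatty acids for storage, membrane lipids or oxidation, rose in 3 of 3 cases, under TMM and under total count scaling alike. ACSL4, which prefers arachidonic acid and other polyunsaturated chains, stood at 19.0, 17.5, 22.8, 23.0 and 32.3 CPM in control and at 64.4, 55.4, 57.8, 53.3 and 52.5 CPM in myopia. No library came near the other group. ACSL4 rose by 1.31 ± 0.15 on the log2 scale (adjusted p = 3.9e-06), a 2.47-fold higher level. ACSL3, an isoform of the endoplasmic reticulum and lipid droplets, stood at 13.9, 16.0, 16.4, 22.5 and 23.1 CPM in control and at 29.0, 26.7, 30.6, 30.5 and 32.6 CPM in myopia. Its controls 4 and 5 were raised towards the myopia level, and it rose by 0.70 ± 0.14 (adjusted p = 0.00051).

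ACSL1, the long-chain ligase of fat, heart and muscle, rose from 35.01 ± 3.39 to 53.9 ± 2.84 CPM, by 0.62 ± 0.09 on the log2 scale (adjusted p = 2.66e-05). ACSL4 rose more than ACSL1 within the same libraries: their log2 ratio went from -0.64 ± 0.23 to 0.07 ± 0.11, a difference of 0.71 ± 0.11 (exact permutation, adjusted p = 0.0159). For ACSL3 against ACSL1 the difference was 0.10 ± 0.11 (exact permutation, adjusted p = 0.435). All 3 ligases had controls 4 and 5 above controls 1 to 3. Myopia library 2 was the lowest myopia library for ACSL3 only.

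The sterol enzymes often had their extremes in the same libraries. Myopia library 2 was the lowest of its group for 14 of the 17 (82.4%) and myopia library 4 the highest for 11 (64.7%), against 20.4% and 19.0% of all genes tested. In control, library 1 was the lowest for 10 (58.8%) and library 5 the highest for 7 (41.2%), against 21.5% and 33.5%. HMGCS1, CYP51A1, MSMO1, DHCR7 and the elongase ELOVL6 showed all 4 of these extremes, as did 2.07% of all genes.

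Myelin genes had a similar order of libraries. MBP, a major myelin protein gene, stood at 1456, 2539, 2317, 2825 and 3522 CPM in control and at 1969, 696, 2259, 3424 and 1856 CPM in myopia. Its lowest and highest libraries were those of HMGCS1 in each group, and its group difference did not pass (-0.31 ± 0.34 on the log2 scale, adjusted p = 0.426). MOG, made by oligodendrocytes of the central nervous system, was lowest in control 1 (55.1 CPM) and myopia 2 (17.4 CPM) and highest in control 2 (140.5 CPM) and myopia 4 (95.2 CPM). MAG, a myelin adhesion protein gene, had its extremes in the same 4 libraries as MOG.

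Of the 6 myelin-cell markers used 4 fell, 0 rose and 2 did not pass between the groups. The list summed to 3528, 4374, 4569, 4786 and 5178 CPM in control and to 3030, 1715, 3139, 4947 and 3127 CPM in myopia; the groups overlapped, and no marker was at 0 in all libraries of a group. With 5 libraries a group no correlation was computed, and the part of myelin-forming cells in the sterol gene values was not tested. Without myopia library 2, 5 of the 17 sterol enzymes rose and 8 fell, the same counts as with it. Without control libraries 4 and 5, 6 rose and 8 fell, and without myopia library 4, 3 rose and 9 fell.

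**Figure D4:**
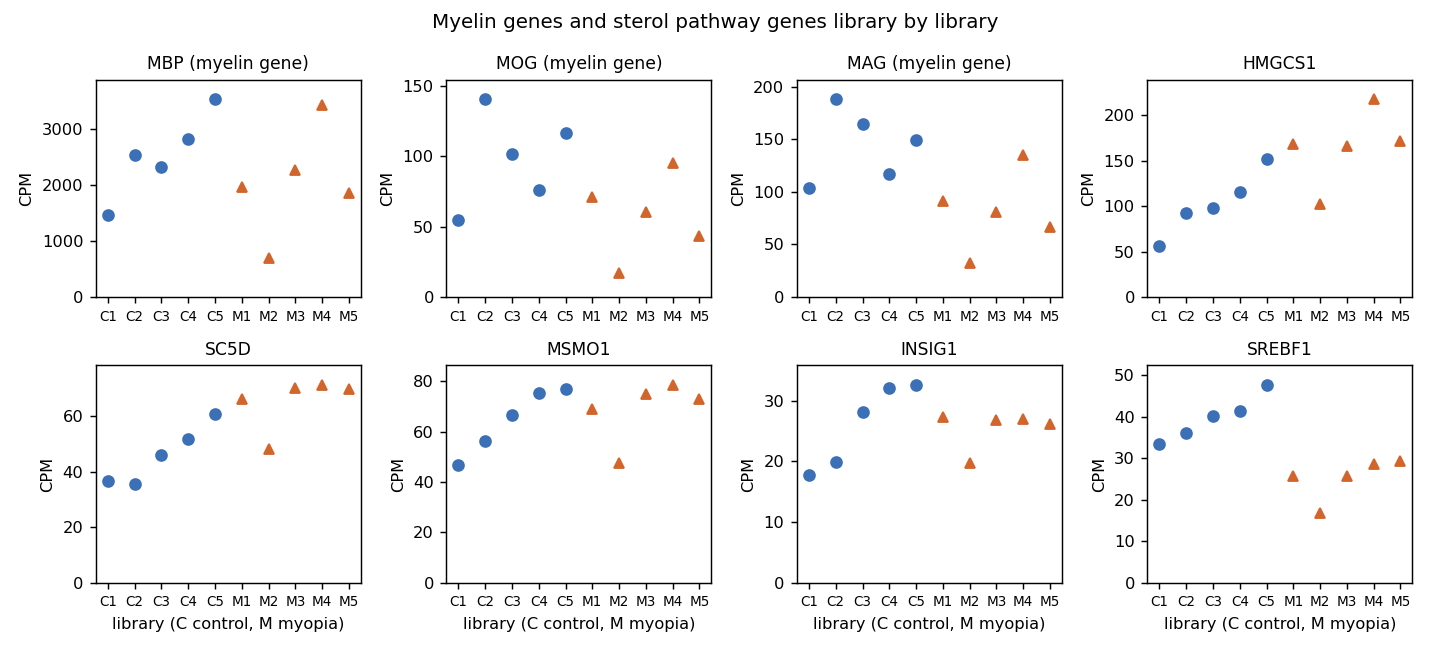
CPM (vertical axes) of 3 myelin genes and 5 genes of the sterol pathway in each library (horizontal axes; C1 to C5 control, circles; M1 to M5 myopia, triangles), the genes having been chosen after their values were seen. Library M2 is the lowest myopia library in all 8 panels, and library M4 the highest for MBP, MOG, MAG, HMGCS1, SC5D and MSMO1.

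Genes around the pathway also moved both ways. Over 7 lists of neighbouring functions 36 of 100 tested genes rose and 44 fell, a share of 80.0% called against 71.9% of all genes (36.9% higher, 35.1% lower); with total count scaling 49 rose and 17 fell. Of 19 genes of sterol transport, storage and efflux 7 rose and 8 fell. ABCA1, the exporter of cellular cholesterol, stood at 12.7, 9.37, 10.5, 13.5 and 15.8 CPM in control and at 53.2, 40.7, 42.0, 39.0 and 40.7 CPM in myopia. The groups were far apart, and the rise was 1.80 ± 0.14 on the log2 scale (adjusted p = 4.33e-07). SOAT1, which esterifies cholesterol for storage, rose from 8.47 ± 0.707 to 22.9 ± 2.56 CPM, by 1.44 ± 0.11 (adjusted p = 4.1e-07). NR1H2, which encodes the sterol receptor LXR-beta, averaged 134 ± 28.4 CPM in control and 60.2 ± 2.10 CPM in myopia, a fall of 1.16 ± 0.13 on the log2 scale (adjusted p = 4.58e-06).

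Of 10 genes for the cutting and turnover of SREBP and INSIG proteins 7 rose and 2 fell (8 and 0 with total count scaling). RNF145, a ubiquitin ligase acting on SCAP, and ERLIN1, a sterol-sensing protein of the endoplasmic reticulum, rose by 0.67 ± 0.12 (adjusted p = 0.000226) and 0.71 ± 0.13 (adjusted p = 0.000339). UBE2G2, a ubiquitin-conjugating enzyme of protein disposal there, fell by 0.56 ± 0.07 (adjusted p = 1.64e-05). The isoprenoid branch, which leaves the sterol route at farnesyl diphosphate, had 4 rises and 5 falls among 12 genes (6 and 1 with total count scaling). GGPS1, which makes geranylgeranyl diphosphate, and the prenyltransferase subunits PGGT1B and RABGGTB, which attach it to proteins, rose by 0.90 ± 0.10, 1.92 ± 0.23 and 0.87 ± 0.11 on the log2 scale. PGGT1B was at a low level, 2.02 ± 0.561 CPM in the control eyes and 7.68 ± 1.55 CPM in the myopia eyes.

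Among 14 tested genes of fatty acid supply and elongation 5 rose and 5 fell (8 and 4 with total count scaling). SLC25A1, which exports citrate from mitochondria to feed ACLY, averaged 84.9 ± 10.2 CPM in control and 39.6 ± 3.10 CPM in myopia (-1.0996 ± 0.10 on the log2 scale, adjusted p = 8.5e-07). TECR, the reductase that closes each elongation cycle, fell as well, at -1.29 ± 0.14 on the log2 scale (adjusted p = 3.74e-06), and so did MCAT, of the mitochondrial synthesis route, at -1.198 ± 0.15 (adjusted p = 1.27e-05). The elongases ELOVL4 and ELOVL7 of this list, named after their values were seen, rose by 1.58 ± 0.37 (adjusted p = 0.00182) and 1.1995 ± 0.34 (adjusted p = 0.00579) at low levels. Of 20 glycerolipid and lipid droplet genes 12 fell and 4 rose, but 4 fell and 6 rose with total count scaling. The acyltransferases AGPAT1, LPCAT3 and AGPAT2 fell with log2 fold changes of -0.94 ± 0.09, -1.01 ± 0.12 and -1.38 ± 0.16.

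Of 12 further acyl-CoA synthetases and carriers 7 fell and 4 rose (3 and 4 with total count scaling). AACS, which activates acetoacetate for lipid synthesis, and the fatty acid transport proteins SLC27A4 and SLC27A3 fell by 1.17 ± 0.11, 1.15 ± 0.11 and 0.74 ± 0.10 on the log2 scale. ACSL6, which rose by 1.53 ± 0.28 (adjusted p = 0.000318), and ACSL5, at -0.20 ± 0.11 (adjusted p = 0.13), are further ACSL ligases of this list, named after their values were seen. Of 13 lipid-sensing kinases and transcription factors 5 rose and 5 fell (7 and 1 with total count scaling). PRKAA1, a catalytic subunit of the energy sensor AMPK that inhibits acetyl-CoA carboxylase, stood at 1.81, 1.37, 2.01, 4.26 and 5.27 CPM in control and at 22.2, 22.7, 21.5, 17.6 and 20.5 CPM in myopia. Its controls 4 and 5 were above the other controls and still far below every myopia library; the rise was 2.82 ± 0.32 (adjusted p = 5.93e-06). PRKAB2, a regulatory subunit, rose by 1.48 ± 0.11 (adjusted p = 2.56e-07), and STK11, the kinase that activates AMPK, fell by 0.88 ± 0.10 (adjusted p = 3.24e-06).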

How the data were processed

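RNA-seq libraries of 10 scleral samples were deposited by the authors as raw counts per gene symbol, whole numbers with 1 column per library. The labels' protocols name total RNA and a SMARTer mRNA library kit. The submitters' processing notes name the mouse builds GRCm38 and mm10 without a role. The aligner, counter, annotation and strand setting were not given in the sources used here. Reads shared by overlapping or antisense genes could therefore not be separated, and no coordinates, lengths or sequences are given. Of 18079 lines, 437 had no symbol (0.751% to 1.69% of counts) and were left out. Of the 34 symbols analysed, 33 stand in the guinea pig RefSeq gene table (assembly mCavPor4.1).

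The main test was that of edgeR 4.0.16 under R 4.3.3, which tested 14683 genes and left out 2959. Its steps were filterByExpr (minimum count 10, total 15), TMM factors on the genes kept, robust glmQLFit, and glmQLFTest on group. SE is the log2 fold change over the square root of F. Ratios used a pseudocount of 0.5 and an exact permutation test. On simulated data for this comparison with 14683 genes, 79% of 2-fold and 97% of 4-fold changes were recovered, with 12 false calls. The simulation changed only a small share of genes, as many up as down, and left the others equal between groups. In the real data 71.9% of genes passed, so these rates cannot be carried over to the calls reported here. No replicate pair agreed within sampling noise (chi-square over degrees of freedom 18.1 to 117).

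The groups, from the library titles, share replicate numbers, but same-numbered libraries did not deviate together, so the replicate number as a block is an alternative only. Other alternatives were RLE, upper quartile or no factors, 2 other filters, DESeq2 1.42.0, limma-voom (limma 3.58.1) with and without quality weights, dispersion without robust estimation, summed lines of a symbol, control libraries 4 and 5 left out, and each library left out. The members and lists were chosen with earlier results of these data known. One marker gene is not reported here and was left out of its list. All members are named. From each neighbouring list, the genes named are at most the 3 of smallest p past the threshold. Exceptions are ELOVL4, ELOVL7, ACSL6 and ACSL5, which were named after their values were seen.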

Additional observations from a re-analysis of the deposited data

Results flagged for a closer look

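Each gene's CPM was examined within each group of 5 libraries for a library far from the others (gap to the nearest library over the group's range, against Dixon's critical value of 0.71). Of 68 such groups 5 had one, a share close to the about 1 in 20 that chance alone gives. The groups share the same libraries and are not independent, and the share over all genes is not given here. All 5 were myopia library 2, lying below the other myopia libraries. MVK stood at 11.6 CPM there and at 13.2 to 13.8 CPM in the others. NSDHL stood at 28.9 CPM against 42.5 to 46.4 CPM, and SC5D at 48.0 CPM against 66.0 to 71.2 CPM. INSIG1 stood at 19.7 CPM against 26.2 to 27.3 CPM, and SREBF1 at 16.9 CPM against 25.7 to 29.3 CPM. The same library had the lowest summed level of myelin-cell markers, 1715 CPM against 3030 to 4947 CPM in the other myopia libraries; the part of those cells in these values was not tested.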

How the results depend on the processing

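Over all genes, between 10103 and 11173 passed across the 22 alternatives, against 10561. The counts of members higher and lower stayed within 1.5 times of 10 and 18 (8 to 11 and 16 to 19 with each library left out), except with total count scaling, where 7 were lower. That scaling also turned the sign of 7 members, to 0.25 for PMVK, 0.062 for SQLE, 0.18 for TM7SF2, 0.39 for INSIG1, 0.17 for ACACB, 0.038 for ELOVL1 and 0.24 for ELOVL5, by its construction. INSIG1, near 0, was also positive with upper quartile factors (0.022), with voom quality weights (0.088) and without control libraries 4 and 5 (0.22), and ran from -0.14 to 0.063 with each library left out. Among the ratios, FADS1/FADS2 ran from -0.039 to 0.074, ELOVL6/ELOVL5 from 0.47 to 0.83 and SREBF1/SREBF2 from -0.28 to -0.13 with each library left out; without control 5 ELOVL6/ELOVL5 passed, and without myopia 5 SREBF1/SREBF2 passed (-0.28). Without controls 4 and 5, ELOVL6/ELOVL5 (1.01) and ACSL3/ACSL1 (0.24) passed; the cause was not tested.

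The replicate block gave 10 members higher and 17 lower. Correlations of same-numbered libraries lay between -0.13 and 0.01, so the numbers did not pair them. As paired differences, INSIG1/INSIG2 (-1.42), SCAP/INSIG1 (-1.06), ACACA/ACACB (0.80) and ACSL4/ACSL1 (0.71) did not pass, since 5 pairs cannot give a p below 0.0625. Low counts limit HSD17B7 and ELOVL6 in the control libraries.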
